A study of Homo sapiens with 16 samples.

Results

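*EGR1*, *EGR2*, *EGR3*, *NR4A1*, *NR4A2*, *NR4A3*, *IER2* and *IER5* are 8 genes of the immediate early response, and they were taken by name as a set, with earlier results of these data known. All 8 were listed in both tables of the study, among 13475 genes common to both and 14108 genes in all. RNA was sequenced from LN229, an established human glioblastoma (GBM) cell line, in 16 libraries that form 8 groups of 2. In the first experiment, untreated cells were kept in the regular condition (complete medium) or in the ischemic condition, which combines low nutrients (little glucose, glutamine and serum) with hypoxia. In the second experiment, cells in each of these conditions received DMSO as vehicle, VX745, which inhibits p38α, or MK25, which inhibits MK2. The first experiment asked how cells respond to ischemia, and the second what inhibition of p38α or MK2 does to that response. Every group is thus LN229 with no engineered change named in the labels. The labels name DMSO for the DMSO groups only, and no vehicle for VX745 or MK25. The labels give neither the concentration of an inhibitor nor the time in the ischemic condition (the study's methods list a higher concentration for MK25 than for VX745), and they do not say whether replicates were separate cultures. The p-values below therefore measure only the spread between these libraries, which may be technical.

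Immediate early genes are transcribed within minutes of a signal, from factors that are already in the cell, and their transcripts decay fast. EGR1, EGR2 and EGR3 are zinc finger transcription factors that bind the same GC-rich sequence and are held back by the corepressors NAB1 and NAB2. NR4A1 (Nur77), NR4A2 (Nurr1) and NR4A3 (Nor1) are orphan nuclear receptors whose activity is set mainly by how much of them is made. IER2 and IER5 are related small nuclear proteins, of which IER5 is known to promote the activity of heat shock factor 1. Serum response factor with its ELK partners, reached by ERK, and CREB, reached by MSK, RSK and protein kinase A, are the best known routes to these genes, and p38 acts on several of them. MK2 is a kinase downstream of p38α that also controls the decay of short-lived transcripts with AU-rich elements.

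The promoters of *EGR1*, *EGR2* and *NR4A3* are shown because they hold elements of the routes above and because these genes part in the results below. RefSeq (GRCh38.p14) promoter windows, from 250 bases before to 50 bases after a start, were found for 6 of the 8 genes, and there was no entry for *EGR3* or *NR4A2*. They were searched on both strands for the CArG box that serum response factor binds, for the core TGACG of the cAMP response element, for the EGR site GCGNGGGCG and for the NR4A monomer site AAAGGTCA. Of all 35116 windows in the table, 1.29% held a CArG box, 24.6% the core TGACG, 9.43% the EGR site and 1.22% the NR4A site. The *EGR1* window (chr5:138465229-138465478, + strand) held 2 CArG boxes, from −105 to −96 and from −83 to −74 relative to the start, and also 2 copies of TGACG and 1 EGR site. Of 3 windows for *EGR2*, the one printed (chr10:62816374-62816616, − strand) held 1 CArG box from −71 to −62 and 2 copies of TGACG. Another *EGR2* window held 1 EGR site, after the start, and the remaining one held none of the 4 motifs. The *NR4A3* window held 4 copies of TGACG and no CArG box. The stretch printed (chr9:99821635-99821854, + strand) ends at −31 and holds 3 of them. The copy from −25 to −21, also before the start, is not printed. The *IER2* window held 1 copy of TGACG, and the windows of *NR4A1* and *IER5* held none of the 4 motifs. The sequences below are written 5′ to 3′, with the CArG boxes of *EGR1* and *EGR2* and the TGACG cores of *NR4A3* (on either strand) in capitals.
EGR1: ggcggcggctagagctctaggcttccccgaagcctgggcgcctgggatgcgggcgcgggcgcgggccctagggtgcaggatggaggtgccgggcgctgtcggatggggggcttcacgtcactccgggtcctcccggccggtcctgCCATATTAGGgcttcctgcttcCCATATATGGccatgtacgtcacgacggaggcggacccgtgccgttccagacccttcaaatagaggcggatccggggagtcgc
EGR2: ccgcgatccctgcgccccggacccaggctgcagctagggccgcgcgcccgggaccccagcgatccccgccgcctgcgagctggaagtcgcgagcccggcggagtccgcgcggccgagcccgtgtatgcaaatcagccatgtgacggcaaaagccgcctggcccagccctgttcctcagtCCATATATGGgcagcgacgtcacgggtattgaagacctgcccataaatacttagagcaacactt
NR4A3: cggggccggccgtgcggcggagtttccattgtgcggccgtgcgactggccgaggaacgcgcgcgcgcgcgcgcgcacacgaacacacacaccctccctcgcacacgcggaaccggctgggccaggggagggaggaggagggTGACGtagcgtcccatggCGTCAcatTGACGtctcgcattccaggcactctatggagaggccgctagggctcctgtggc

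Levels are given as the deposited log2 normalized CPM (reads of a gene relative to the normalized size of its library, with a small offset, in log2), replicate 1 first, and they are not corrected for gene length, so levels are compared between libraries and not between genes. Each experiment was normalized on its own, and no level is compared across experiments. The libraries held between 22346073 and 28373993 reads on listed genes in the first experiment and between 20122017 and 37562668 in the second. The fewest reads of any member in a library were 33, for *NR4A3* in regular replicate 1 of the first experiment. All 7 glioblastoma line markers that were looked up were listed, with *GFAP* lowest at −0.36 to 1.06. Of 10 markers of cells that the culture should lack, 7 were not analysed here, and *CD68* (4.47 to 6.01) and *SYT1* (3.69 to 6.31) were among those listed. Both moved with the culture: in the second experiment *SYT1* was at 3.79 to 4.08 in the 6 regular and at 5.38 to 6.0 in the 6 ischemic libraries, and *CD68* at 4.92 to 5.27 and 5.72 to 6.01, and their part in the results below was not tested. In RNA from a whole culture, fewer cells that use a gene and less RNA of it per cell cannot be told apart. The SMART-Seq kit named for the libraries was taken not to mark strand. Reads of *NR4A1* could then not be separated from those of the antisense gene *NR4A1AS* and of other long noncoding RNA genes that overlap it. The same holds for *EGR3* and a long noncoding RNA gene that overlaps it.

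**Figure D1:**
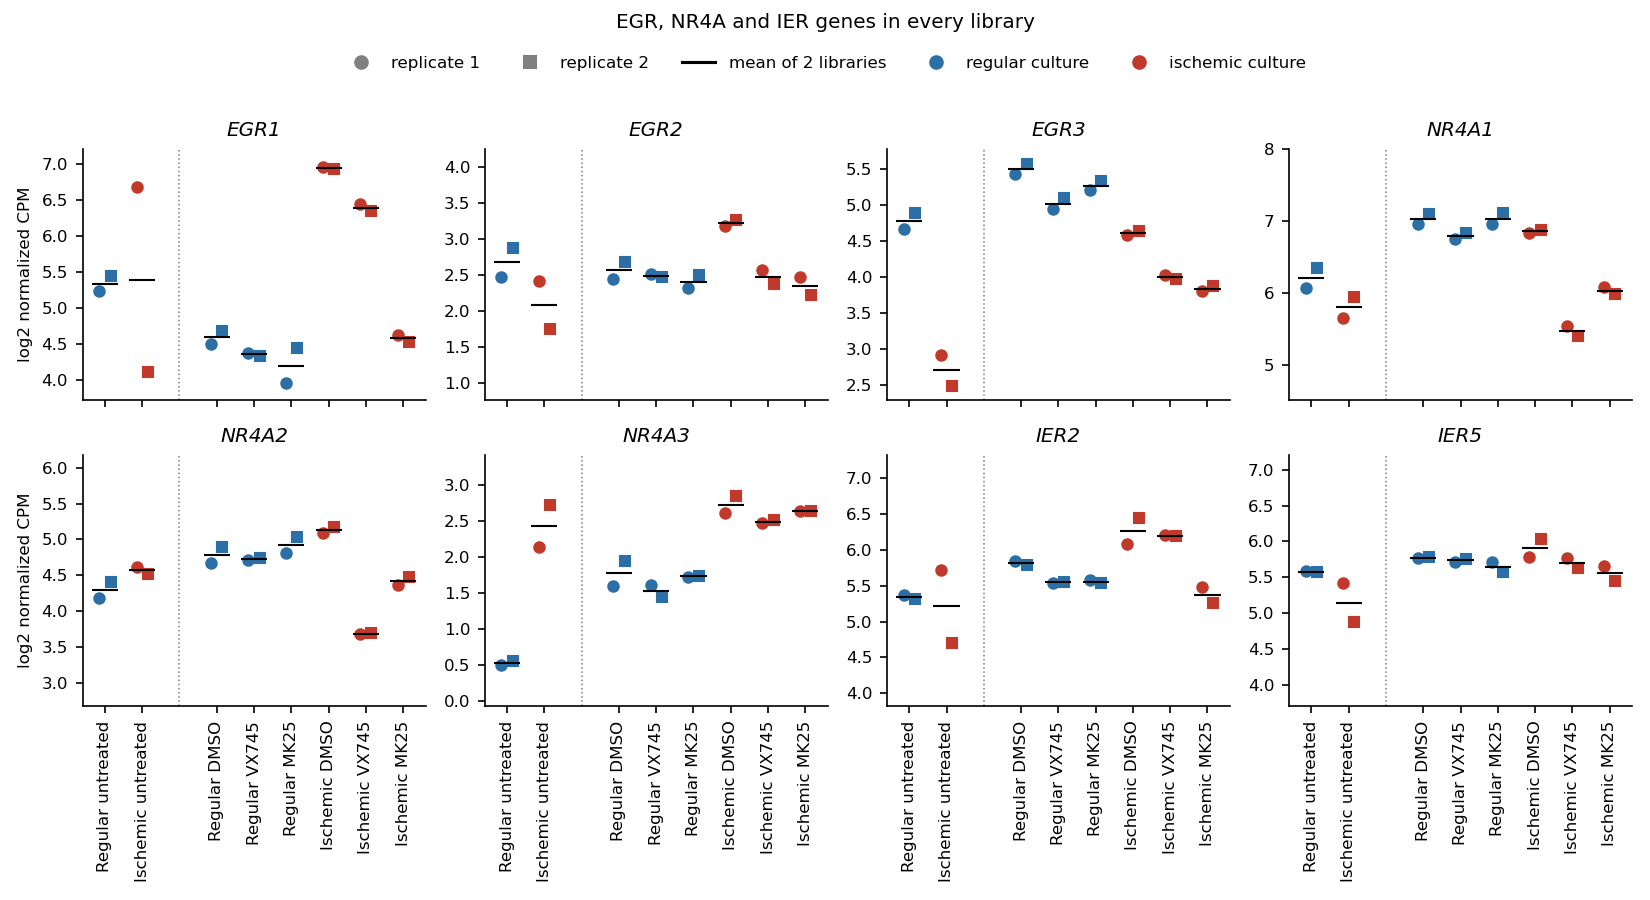
Level of each gene (log2 normalized CPM, vertical axis, the same span of log2 units in each panel) in every library of the 8 groups (horizontal axis), with regular libraries in blue, ischemic libraries in red and a black line at the mean of 2 libraries. The dotted line parts the 2 experiments, whose levels were normalized separately, and the untreated ischemic libraries of *EGR1* lie at 6.69 and 4.10, on either side of the regular libraries.

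*EGR1*, the best studied member, gave the widest spread between replicates and the widest response. Its untreated regular libraries were at 5.23 and 5.44, and its untreated ischemic libraries at 6.69 and 4.10. The ischemic pair thus lay on either side of the regular pair, with 2840 reads in replicate 1 and 362 in replicate 2. In the second experiment *EGR1* was at 4.50 and 4.68 in regular DMSO, at 4.37 and 4.33 in regular VX745 and at 3.96 and 4.44 in regular MK25. It was at 6.97 and 6.93 in ischemic DMSO, at 6.45 and 6.34 in ischemic VX745 and at 4.62 and 4.53 in ischemic MK25. Ischemic DMSO and ischemic VX745 were above all other groups, while ischemic MK25 overlapped with regular DMSO.

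*EGR2*, known for its role in myelination and in lymphocytes, moved over a narrower range. Untreated, it was at 2.47 and 2.87 in the regular libraries and at 2.42 and 1.74 in the ischemic ones, so that the pairs did not overlap but nearly met. Its regular libraries in the second experiment lay between 2.31 and 2.68 under the 3 treatments. In ischemic cells it was at 3.17 and 3.26 under DMSO, at 2.57 and 2.38 under VX745 and at 2.47 and 2.21 under MK25. Only the ischemic DMSO group stood apart, since each of the other 5 groups overlapped with its neighbour in the order of means.

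*EGR3*, which is itself known as a target of EGR1 in some cells, ran the other way. Untreated, it was at 4.66 and 4.89 in the regular libraries and at 2.92 and 2.49 in the ischemic ones. With the inhibitors in regular cells it was at 5.43 and 5.58 (DMSO), 4.94 and 5.09 (VX745) and 5.20 and 5.33 (MK25). Ischemic cells held 4.59 and 4.64 under DMSO, 4.03 and 3.97 under VX745 and 3.80 and 3.87 under MK25. Every ischemic library was below every regular library of its experiment, and no neighbours in the order of the 6 group means overlapped.

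The orphan receptor *NR4A1* was also lower in ischemic cells. Its untreated libraries were at 6.07 and 6.34 in the regular and at 5.65 and 5.94 in the ischemic condition. Under DMSO it was at 6.96 and 7.10 in regular and at 6.83 and 6.88 in ischemic cells, a gap hardly wider than that between replicates. Regular VX745 (6.75 and 6.84) and regular MK25 (6.95 and 7.11) lay close to these. In ischemic cells it was at 5.54 and 5.39 under VX745 and at 6.08 and 5.98 under MK25, below every other library of the experiment.

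*NR4A2* was also lowest in ischemic cells with an inhibitor, but its controls ran the other way. Untreated, it was at 4.18 and 4.41 in regular and at 4.61 and 4.53 in ischemic cells. Under DMSO it was at 4.67 and 4.89 in regular and at 5.09 and 5.17 in ischemic cells, so that the ischemic libraries were the higher ones in both experiments. Regular VX745 (4.71 and 4.74) and regular MK25 (4.81 and 5.04) overlapped with regular DMSO. Ischemic VX745, at 3.69 in both libraries, was the lowest group, and ischemic MK25 followed at 4.37 and 4.48.

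*NR4A3* split by culture. Untreated, it was at 0.50 and 0.56 in regular and at 2.15 and 2.72 in ischemic cells. In the second experiment the 6 regular libraries lay between 1.45 and 1.95 and the 6 ischemic libraries between 2.47 and 2.85. No library of either culture reached the range of the other.

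*IER5* had the narrowest range of group means in the second experiment, and *IER2* was close to *EGR2* in this respect. For *IER2* the untreated libraries were at 5.37 and 5.31 in regular and at 5.72 and 4.70 in ischemic cells, which again lay on either side of the regular pair. *IER2* was at 5.84 and 5.79 in regular DMSO and between 5.53 and 5.58 in the other regular libraries of the second experiment. In ischemic cells it was at 6.08 and 6.45 under DMSO, at 6.21 and 6.18 under VX745 and at 5.47 and 5.25 under MK25. Ischemic MK25 was the lowest group of *IER2*, and ischemic DMSO and VX745 overlapped at the top. *IER5* was at 5.59 and 5.57 in regular and at 5.42 and 4.87 in ischemic untreated cells, and in the second experiment all 12 libraries lay between 5.46 and 6.04. Its highest libraries were those of ischemic DMSO, at 5.79 and 6.04, and its group means spanned only 0.36 on the log2 scale, against 2.75 for *EGR1*.

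The differences below are log2 differences between group means with their standard errors, from a limma model with a variance trend, with Benjamini-Hochberg adjustment of the p-values over the whole table. A gene passed at an adjusted p under 0.05 with no minimum fold. In untreated cells, *EGR3* fell in ischemia by a fold of 4.22 (−2.08 ± 0.15, adjusted p = 9.27e-08) and *NR4A3* rose by a fold of 3.74 (1.90 ± 0.23, adjusted p = 9.56e-06). *NR4A2* was slightly higher (0.27 ± 0.10, adjusted p = 0.0327), and *NR4A1* (−0.41 ± 0.11), *EGR2* (−0.59 ± 0.22) and *IER5* (−0.44 ± 0.13) were lower. In all, 2 members rose and 4 fell, where 35.2% of all genes rose and 35.2% fell, and the median of the 8 was −0.27. *EGR1* (0.06 ± 0.53, adjusted p = 0.93) and *IER2* (−0.13 ± 0.22, adjusted p = 0.618) did not pass, and the SE of *EGR1* was the largest of the 8.

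Single libraries decided several of these values. Without ischemic replicate 1, *EGR1* was at −1.24 and *IER2* at −0.64, and without ischemic replicate 2 they were at 1.35 and 0.38, each of which passed. In such a fit the lone ischemic library is assumed to vary like the regular ones. *IER5* was at −0.16 without ischemic replicate 2, −0.43 without regular replicate 1 and −0.44 without regular replicate 2, and passed in none of these. It was at −0.71 without ischemic replicate 1. *EGR2* did not pass without ischemic replicate 2 (−0.26) or regular replicate 2 (−0.39) and was at −0.93 without ischemic replicate 1. *NR4A2* did not pass without ischemic replicate 1 (0.23) or regular replicate 1 (0.16). *NR4A1* did not pass without regular replicate 2 (−0.27), was at −0.26 without ischemic replicate 1, and with *EGR2* and *IER5* it brought the count down from 6 to 3 without regular replicate 2. *EGR3* and *NR4A3* passed without any one of the 4 libraries. Without the variance trend *EGR2*, *NR4A1*, *NR4A2* and *IER5* did not pass, and *NR4A2* also did not pass with quantile normalization (0.23) or median centring (0.23).

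**Figure D2:**
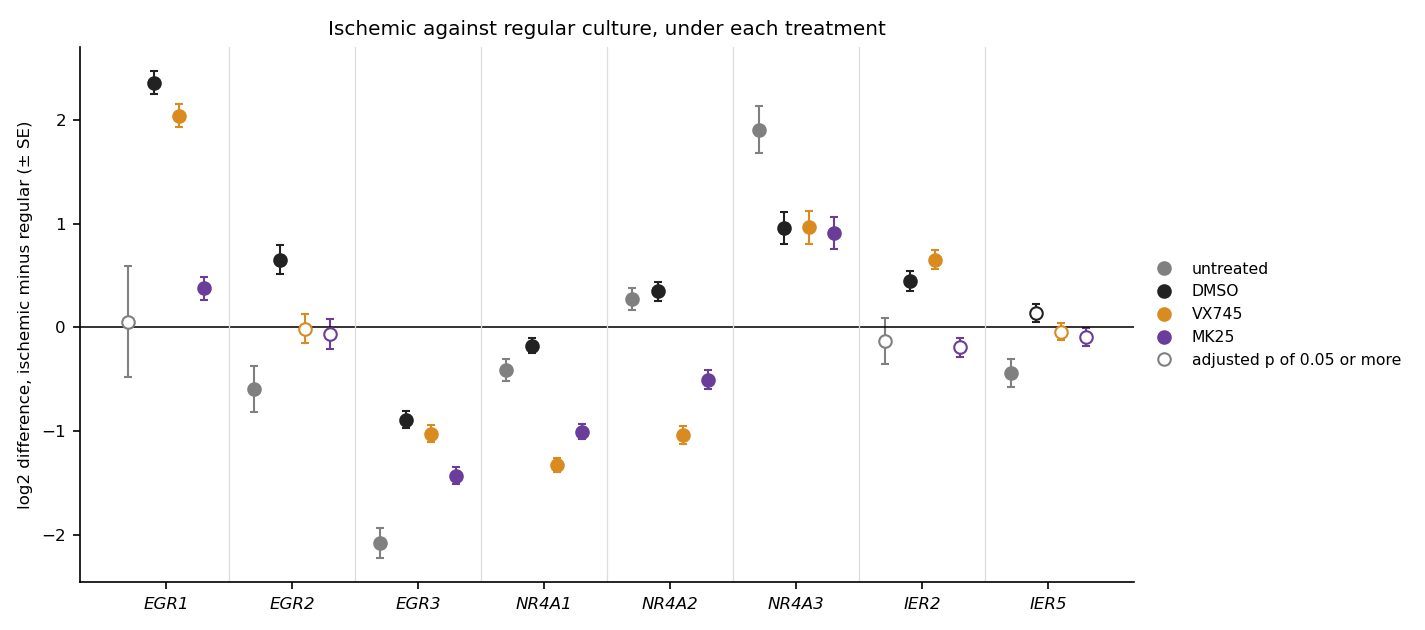
Log2 difference between ischemic and regular cells (vertical axis, bars are SE from limma) for each gene in untreated cells and under DMSO, VX745 and MK25, each from 2 libraries against 2, with open circles where the adjusted p was 0.05 or more. *NR4A3* is above and *EGR3* below zero under all 4 treatments, and *EGR1* falls from 2.36 under DMSO to 0.38 under MK25.

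In the DMSO cells of the second experiment, 5 members rose and 2 fell in ischemia, where 34.4% of all genes rose and 35.2% fell. *EGR1* rose most, by a fold of 5.12 (2.36 ± 0.11, adjusted p = 4.14e-12), and only 2.20% of genes differed by more. *NR4A3* rose by a fold of 1.94 (0.96 ± 0.16, adjusted p = 3.17e-05) and *EGR2* by a fold of 1.57 (0.65 ± 0.14, adjusted p = 5.31e-04). *IER2* (0.45 ± 0.09) and *NR4A2* (0.35 ± 0.09) rose less. *EGR3* fell by a fold of 1.85 (−0.89 ± 0.08, adjusted p = 3.07e-08) and *NR4A1* by a fold of 1.13 (−0.18 ± 0.07, adjusted p = 0.0352), while *IER5* did not pass (0.14 ± 0.09, adjusted p = 0.153). *NR4A1* did not pass without ischemic replicate 1 (−0.16), ischemic replicate 2 (−0.20) or regular replicate 2 (−0.11), nor *NR4A2* without regular replicate 1 (0.24), while *IER5* passed without ischemic replicate 1 (0.27) and *IER2* was at 0.27 without ischemic replicate 2. *NR4A1* also did not pass without the variance trend. For *EGR2*, *IER2* and *IER5* the difference had the opposite sign in untreated cells, where *IER2* did not pass, and the experiments were not compared by a test, since their tables were normalized separately.

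Scaling bears on the small differences. When the recovered reads were scaled by library totals in place of the authors' normalization, the median of all genes moved by −0.17 in the untreated and −0.22 in the DMSO comparison, and the share of rising genes among those that passed went from 50.02% to 37.7% and from 49.4% to 32.3%. The shift was −0.11 between the cultures under VX745, 0.12 for VX745 and 0.13 for MK25 against DMSO in ischemic cells, and 0.11 and 0.13 for the interactions below. Under that scaling *NR4A2* no longer passed in either comparison (0.10 and 0.13), *EGR1* was at −0.04 in untreated cells and *IER5* at −0.08 under DMSO. The signs of *EGR3*, *NR4A1*, *NR4A2*, *NR4A3*, *EGR2* and *IER2* in both comparisons did not change under any of the 4 other scalings.

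The response to ischemia was also measured within each inhibitor. Under VX745, 3 members rose and 3 fell, where 34.0% of all genes rose and 32.6% fell. *EGR1* (2.04 ± 0.11), *NR4A3* (0.96 ± 0.16) and *IER2* (0.65 ± 0.09) were higher in ischemic than in regular cells. *NR4A1* (−1.33 ± 0.07, adjusted p = 3.25e-11), *NR4A2* (−1.04 ± 0.09, adjusted p = 2.01e-08) and *EGR3* (−1.02 ± 0.08) were lower. *EGR2* (−0.01 ± 0.14) and *IER5* (−0.04 ± 0.09) did not pass. Scaling by library totals moved the share of rising genes among those that passed from 51.1% to 41.1%.

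Under MK25, 2 members rose and 3 fell, where 33.5% of all genes rose and 33.7% fell. *NR4A3* was 1.88-fold higher in ischemic cells (0.91 ± 0.16), and *EGR1* was 1.30-fold higher (0.38 ± 0.11, adjusted p = 0.00611). *EGR3* (−1.43 ± 0.08) and *NR4A2* (−0.50 ± 0.09) were lower, as was *NR4A1*, by a fold of 2.01, and *EGR2* (−0.06 ± 0.14), *IER2* (−0.19 ± 0.09) and *IER5* (−0.09 ± 0.09) did not pass. *EGR1* no longer passed without ischemic MK25 replicate 1 (0.33) or regular MK25 replicate 1 (0.14) and was at 0.62 without regular MK25 replicate 2, and *IER2* passed without ischemic MK25 replicate 1 (−0.30) or with scaling by library totals (−0.28).

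In ischemic cells, both inhibitors lowered most of the 8 genes, and all 8 differences were below zero under each. Both sets of differences subtract the same 2 ischemic DMSO libraries and are thus not independent of each other. Those libraries also enter the difference between the cultures under DMSO. VX745 lowered 5 of 8 against DMSO, where 14.0% of all genes rose and 14.9% fell, with a median of −0.59. *NR4A2* fell by a fold of 2.72 (−1.44 ± 0.09, adjusted p = 2.33e-08) and *NR4A1* by a fold of 2.62 (−1.39 ± 0.07, adjusted p = 1.49e-09), and 0.38% and 0.46% of genes differed by more. *EGR2* (−0.74 ± 0.14), *EGR3* (−0.62 ± 0.08) and *EGR1* (−0.55 ± 0.11) fell by folds of 1.67, 1.54 and 1.47. *NR4A3* (−0.24 ± 0.16, adjusted p = 0.275), *IER5* (−0.22 ± 0.09, adjusted p = 0.0646) and *IER2* (−0.07 ± 0.09, adjusted p = 0.638) did not pass. *IER5* passed without ischemic DMSO replicate 1 (−0.34) and with each library centred on its median (−0.24). With scaling by library totals 82.5% of the genes that passed were higher, in place of 48.3%, while the same number of members fell and *IER2* was at 0.05.

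MK25 lowered 7 of 8 in ischemic cells, where 19.8% of all genes rose and 22.0% fell, with a median of −0.80. *EGR1* fell by a fold of 5.18 (−2.37 ± 0.11, adjusted p = 1.37e-10), and 0.09% of genes differed by more. This SE comes from the second experiment alone, while the untreated ischemic libraries of the first lay 2.58 apart in *EGR1*. *IER2* (−0.90 ± 0.09), *EGR2* (−0.88 ± 0.14), *NR4A1* (−0.83 ± 0.07), *EGR3* (−0.78 ± 0.08) and *NR4A2* (−0.71 ± 0.09) fell by folds between 1.63 and 1.87. *IER5* fell less (−0.36 ± 0.09, adjusted p = 0.00299), and *NR4A3* did not pass (−0.09 ± 0.16, adjusted p = 0.68). *IER5* did not pass without ischemic DMSO replicate 2 (−0.23) or ischemic MK25 replicate 2 (−0.26). Scaling by library totals moved the share of rising genes among those that passed from 47.4% to 74.7%, and 7 members still fell.

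**Figure D3:**
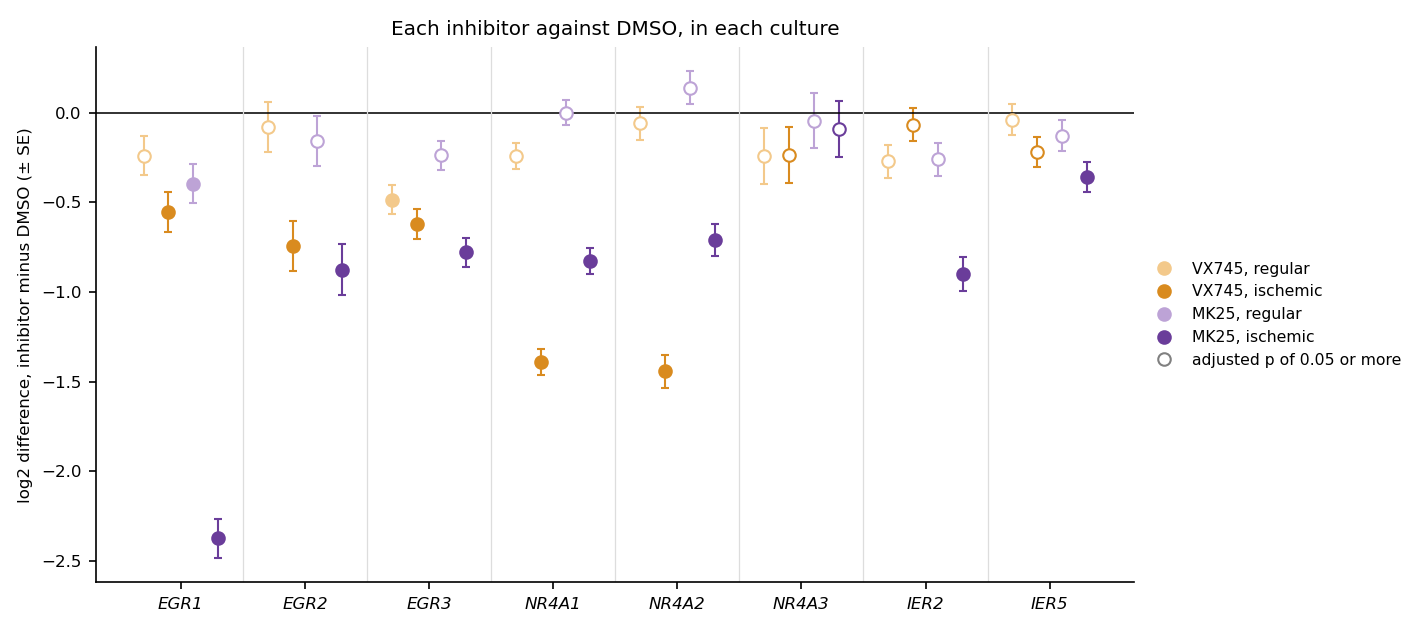
Log2 difference between an inhibitor and DMSO (vertical axis, bars are SE from limma) for each gene in regular (pale) and ischemic (dark) cells, 2 libraries against 2, with open circles where the adjusted p was 0.05 or more. The ischemic points of *NR4A1* and *NR4A2* are lowest under VX745 (−1.39 and −1.44) and that of *EGR1* under MK25 (−2.37), and in regular cells only *EGR3* under VX745 and *EGR1* under MK25 are filled.

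In regular cells 1 member passed under each inhibitor. VX745 lowered *EGR3* alone, by a fold of 1.40 (−0.48 ± 0.08, adjusted p = 0.0154), where 0.178% of all genes rose and 0.157% fell. The other 7 lay between −0.27 and −0.04. Voom with library totals moved the share of rising genes among the few that passed from 53.2% to 41.2%. Voom with the authors' scaling moved it to 23.1%, and the part of scaling in this was not tested. *EGR3* did not pass without regular DMSO replicate 2 (−0.41), without regular VX745 replicate 1 (−0.41), without the variance trend or with only the groups compared in the fit. MK25 lowered *EGR1* alone, by a fold of 1.31 (−0.39 ± 0.11, adjusted p = 0.0268), where 7.00% of all genes rose and 5.21% fell, and the other 7 lay between −0.26 and 0.14. *EGR1* did not pass without regular DMSO replicate 2 (−0.31) or regular MK25 replicate 1 (−0.15) and was at −0.64 without regular MK25 replicate 2, and it did not pass without the variance trend, with only the groups compared or with voom under either scaling, while *EGR3* passed without regular DMSO replicate 1 (−0.31).

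Whether an inhibitor acted differently in the 2 cultures was tested by the interaction, which is the difference of the effects in ischemic and in regular cells. The interactions of both inhibitors subtract the same DMSO difference between the cultures, so they are not independent of each other. For VX745, 3 members passed and all were below zero, where 5.78% of all genes had a positive and 6.0% a negative interaction. They were *NR4A2* (−1.38 ± 0.13, adjusted p = 1.02e-05), *NR4A1* (−1.15 ± 0.10, adjusted p = 7.28e-06) and *EGR2* (−0.66 ± 0.20, adjusted p = 0.0395). *EGR1* (−0.32 ± 0.16, adjusted p = 0.205) and *EGR3* (−0.14 ± 0.11, adjusted p = 0.486), which VX745 lowered in ischemic cells, did not pass here. With 1 of the 8 libraries of these groups left out, *EGR2* passed only without regular DMSO replicate 2 (−0.78), and it was between −0.54 and −0.76 without any other one of them. *EGR2* also did not pass with voom on the recovered reads (−0.58) or without the variance trend. *IER2* passed without ischemic DMSO replicate 2 (0.39). Scaling by library totals moved the share of positive interactions among those that passed from 49.1% to 83.3%, and the 2 *NR4A* genes still passed.

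For MK25, 6 members passed and all were below zero, where 10.5% of all genes had a positive and 13.9% a negative interaction. *EGR1* was the largest (−1.98 ± 0.16, adjusted p = 2.28e-07), and 0.40% of genes had a larger one. *NR4A2* (−0.85 ± 0.13), *NR4A1* (−0.83 ± 0.10), *EGR2* (−0.72 ± 0.20), *IER2* (−0.64 ± 0.13) and *EGR3* (−0.54 ± 0.11) followed, while *IER5* (−0.23 ± 0.12, adjusted p = 0.179) and *NR4A3* (−0.05 ± 0.22, adjusted p = 0.902) did not pass. *EGR2* did not pass without ischemic MK25 replicate 2 (−0.59) or regular MK25 replicate 2 (−0.62). Scaling by library totals moved the share of positive interactions from 42.9% to 71.9%, and the same number of members passed.

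Set against each other in ischemic cells, the inhibitors differed in 4 of the 8 genes, with MK25 listed at the higher concentration in the study's methods. *EGR1* was 3.53-fold lower under MK25 than under VX745 (−1.82 ± 0.11, adjusted p = 4.08e-09) and *IER2* 1.78-fold lower (−0.83 ± 0.09, adjusted p = 5.13e-06). *NR4A2* (0.73 ± 0.09, adjusted p = 1.69e-05) and *NR4A1* (0.56 ± 0.07, adjusted p = 2.16e-05) were higher under MK25. *EGR3* (−0.16 ± 0.08), *EGR2* (−0.13 ± 0.14), *IER5* (−0.14 ± 0.09) and *NR4A3* (0.15 ± 0.16) did not pass. Of all genes, 8.22% were higher and 10.2% lower under MK25, and these 4 calls held in every alternative that was run.

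The untreated ischemic libraries parted most on *EGR1*. Replicate 1 was 2.58 above replicate 2 on the log2 scale, a fold of 5.99, where the median gap over all genes was 0.11 and only 0.081% of 13559 genes had a gap at least as wide. *IER2* was 1.03 apart in the same direction, a gap reached by 1.03% of genes, and *EGR2* 0.68, *IER5* 0.54 and *EGR3* 0.43. *NR4A3* (−0.58) and *NR4A1* (−0.29) were higher in replicate 2, and *NR4A2* was 0.08 apart. The pair of regular libraries differed by at most 0.40 in any member. Among 35 other immediate early genes, *TRIB1*, which encodes a pseudokinase, was 1.36 higher in replicate 1 and *DUSP1*, a phosphatase of p38 and JNK, 1.11 higher in replicate 2, and no other was more than 1 apart. Replicate 1 held 28373993 and replicate 2 held 22346073 reads, and the part of depth in this gap was not tested. Ischemic DMSO libraries, by contrast, lay 0.04 apart in *EGR1* and 0.37 apart in *IER2*.

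**Figure D4:**
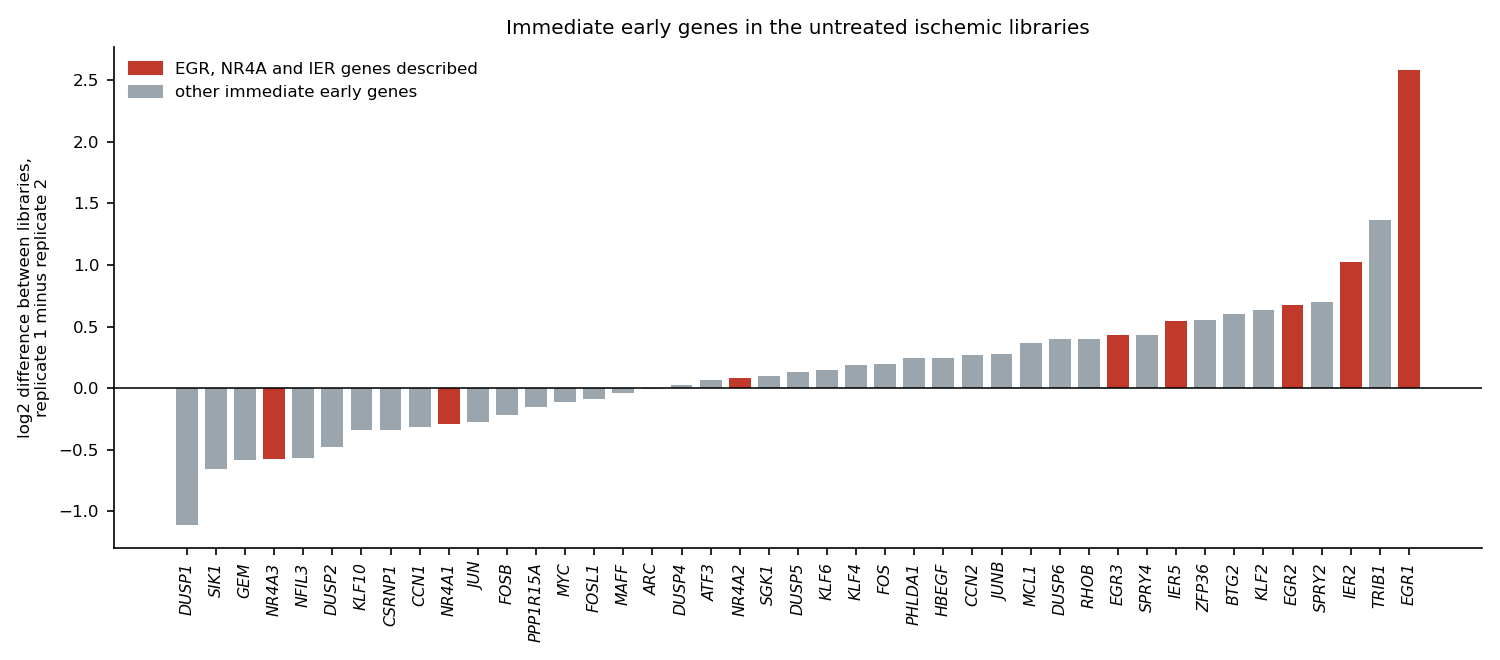
Log2 difference between replicate 1 and replicate 2 of the untreated ischemic cells (vertical axis) for the 8 genes described (red) and 35 other immediate early genes (grey), sorted along the horizontal axis, 1 library each. *EGR1* stands at 2.58, *TRIB1* at 1.36 and *IER2* at 1.03, and *DUSP1* is at the other end at −1.11.

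Most of the other immediate early genes measured rose in ischemia. Of 35, 23 rose and 10 fell in untreated cells and 26 rose and 5 fell under DMSO, with medians of 0.78 and 1.11, where the medians of all genes were −0.01 in both. Of all genes, 35.2% rose and 35.2% fell in untreated cells, and 34.4% rose and 35.2% fell under DMSO. The 10 that fell in untreated cells were 28.6% of the list, a smaller share than that of all genes. *DUSP1* (3.50 and 3.87) and *SIK1*, a kinase that restrains CREB coactivators (3.45 and 3.31), led both comparisons. *NFIL3* (3.26, untreated) and *PPP1R15A*, which brings a phosphatase to eIF2α (3.08, DMSO), were next. In ischemic cells VX745 lowered 11 and raised 8 of the 35, with *JUNB* at −0.97, *CCN2* at 0.82 and *JUN* at 0.79. The median of the 35 was −0.11 and went to 0.01 with scaling by library totals. Over the 4 other scalings, between 8 and 12 of the 35 rose and between 3 and 13 fell. In the main fit VX745 lowered 14.9% and raised 14.0% of all genes. MK25 lowered 24 and raised 2, with a median of −0.46, and *DUSP5*, a phosphatase of ERK (−1.29), and *MYC* (−1.20) fell while *FOS* rose (1.30). It lowered 22.0% and raised 19.8% of all genes. Under MK25 against VX745, 21 were lower and 5 higher, with *FOS* at 1.60, *HBEGF*, a ligand of the EGF receptor, at −1.47 and *TRIB1* at −1.41, where 10.2% of all genes were lower and 8.22% higher. In regular cells VX745 lowered *PHLDA1* (−0.42) and *MCL1* (−0.27) and no other of the 35, and MK25 raised 6 and lowered 6. There VX745 raised 0.178% and lowered 0.157% of all genes, and MK25 raised 7.00% and lowered 5.21%.

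Partners of the EGR and NR4A proteins were measured for 5 of 8 listed, and *EGR4*, *RXRB* and *IER3* were not analysed here. *NAB2*, a corepressor of EGR proteins, rose in ischemia in untreated (1.61 ± 0.10) and in DMSO cells (1.31 ± 0.06), and *RXRA*, the partner of NR4A1 and NR4A2, fell (−0.52 ± 0.09 and −0.55 ± 0.06). VX745 lowered *NAB2* (−0.41 ± 0.06) and raised *RXRA* (0.40 ± 0.06) in ischemic cells, MK25 raised *RXRA* (0.43 ± 0.06), and *NAB2* did not pass under MK25 (−0.02 ± 0.06). *NAB1* rose in untreated cells (0.50 ± 0.07) and was at 0.01 under DMSO. Of 21 upstream factors and kinases, 11 rose and 6 fell in untreated and 8 rose and 5 fell in DMSO cells, which is 52.4% and 28.6% and then 38.1% and 23.8%. Of all genes, 35.2% rose and 35.2% fell in untreated cells, and 34.4% rose and 35.2% fell under DMSO. The 38.1% that rose under DMSO was near the 34.4% of all genes. *RPS6KA2*, the kinase RSK3, rose most (3.25 and 2.78), and *SRF*, serum response factor, rose in both (0.90 and 0.78). The gene of p38α, *MAPK14*, fell in both (−0.64 and −0.45). Under VX745 in ischemic cells 5 of the 21 rose, led by *ELK3* (0.46), *RPS6KA4* (0.41) and *MAPK14* (0.39), and 3 fell. That is 23.8% and 14.3%, where 14.0% of all genes rose and 14.9% fell, so the falls were near the share of all genes. Under MK25, 4 rose and 5 fell, with *RPS6KA3*, the kinase RSK2, at −0.65, *CRTC1* at 0.55 and *MRTFB* at 0.50, and these shares of 19.0% and 23.8% were near the 19.8% and 22.0% of all genes. The medians of the 21 in these last comparisons, −0.05 and −0.04, changed sign between scalings, as did the 0.12 under DMSO between the cultures.

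Genes known as targets of EGR1 mostly rose in ischemia. Of 12, which include *NAB2*, 9 rose and 3 fell in ischemia in untreated cells, where the *EGR1* libraries disagreed, and again under DMSO, with medians of 1.30 and 1.38. Of all genes, 35.2% rose and 35.2% fell in untreated and 34.4% and 35.2% in DMSO cells. *VEGFA*, the angiogenic growth factor (4.85 and 3.91), *F3*, tissue factor (3.10 and 1.98), and the adhesion molecule *ICAM1* (2.05 and 2.01) rose most in both. In ischemic cells VX745 lowered 8 of them, with *VEGFA* at −0.51, and MK25 lowered 7 and raised 1, with *THBS1* at −0.61, *FGF2* at −0.50 and *ICAM1* at 0.49. Of all genes 14.9% fell under VX745 and 22.0% under MK25. The medians of the 12 were −0.23 in both cases, while *EGR1* was at −0.55 and −2.37. With scaling by library totals these medians were −0.11 and −0.10, and VX745 then lowered 3. Under MK25 the 9 rises and 3 falls between the cultures were again found, with *EGR1* at 0.38.

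Genes of the heat shock response, which IER5 is known to promote, were measured for 7 of 9, and *HSPA1A* and *HSPA1B* were not analysed here. In untreated ischemic cells 5 fell and 1 rose, led by *HSPA8* (−2.65), *HSPH1* (−2.20) and *HSP90AA1* (−1.69), all of which encode cytosolic chaperones. Of all genes, 35.2% fell and 35.2% rose there. Under DMSO 4 fell and 3 rose, with *HSPA8* at −2.02 and *DNAJB1*, the cochaperone, at 1.41, where 35.2% of all genes fell and 34.4% rose. VX745 lowered 5 and MK25 lowered 6 of the 7 in ischemic cells, with *DNAJB1* at −0.92 and −1.08, where *IER5* was at −0.22 and −0.36. The share of all genes that fell was 14.9% under VX745 and 22.0% under MK25.

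**Figure D5:**
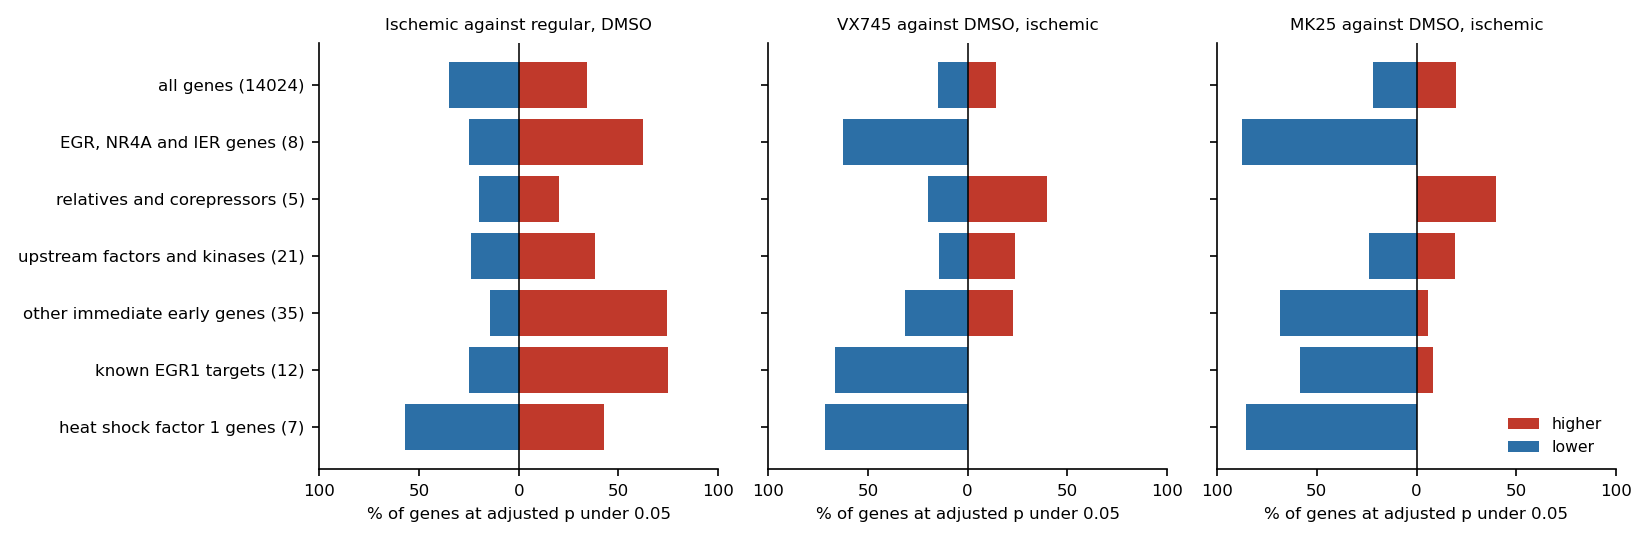
Share of genes (horizontal axis, percent, higher to the right in red, lower to the left in blue) with an adjusted p under 0.05 in each list, with the number of genes measured in brackets, beside the share over all genes. MK25 lowered 7 of the 8 genes described and 24 of 35 other immediate early genes in ischemic cells, and VX745 lowered 5 and 11. MK25 lowered 22.0% and VX745 14.9% of all genes.

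Over the 12 libraries of the second experiment, which share 6 groups and their normalization, the 8 genes did not move as one. *NR4A1* and *NR4A2* were most alike (Pearson r = 0.92), followed by *EGR1* and *IER2* (r = 0.88) and by *EGR3* and *NR4A1* (r = 0.88). *EGR3* and *NR4A3* ran opposite (r = −0.78), and *EGR1* was at −0.43 with *EGR3*. Among 10052 genes, or 1 more, that averaged 3 or more on the log2 scale, those most like *EGR1* were *SPRY4*, a feedback inhibitor of growth factor signalling (r = 0.99), *ACTN4*, an actin crosslinker (0.98), and *ADRA1B*, an adrenergic receptor (0.98). For *NR4A2* they were *HR*, a corepressor of nuclear receptors (0.95), *NR4A1* (0.92) and the mRNA export factor *NXF1* (0.92), and for *NR4A1* they were *FUBP1*, *SURF4* (both 0.96) and *MTHFD2L* (0.96). *IER2* was most like *BMP2* (0.95), *LMNA* (0.93) and *NT5E* (0.93), *EGR2* like *ZPR1* (0.94), *GNB1* and *VASP* (both 0.93), and *IER5* like *UBE2S* (0.91), *ILKAP* (0.90) and *TNFRSF1A* (0.90). *EGR3* was most like *DHX15*, *PUM3* and *C6orf62* (all 0.98) and *NR4A3* like *ZNF653* (0.99), *CBLB* and *QTMAN* (both 0.98). Profiles such as those of *EGR3* and *NR4A3*, which split by culture, were common, with 1020 and 1535 genes above an r of 0.9, against 188 for *EGR1*, 57 for *NR4A1*, 21 for *IER2*, 10 for *EGR2*, 6 for *NR4A2* and 1 for *IER5*.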

How the data were processed

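RNA-seq of 16 LN229 libraries was taken as deposited. Per the labels and the methods of the study, the authors made libraries with a SMART-Seq kit, trimmed the reads and aligned them to GRCh38 with HISAT2 in Galaxy, and they named edgeR for differences in expression. The study's methods name GRCh38 annotation files, and the counting program is not given in the sources used here. The authors deposited log2 normalized CPM in 2 tables, of 13559 and 14024 genes listed by Entrez identifier, of which 99.4% and 99.3% matched a RefSeq symbol.

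The unlogged values rose in steps of whole reads. In each library 100% of values came out whole within 0.05 of a read, which gave between 20122017 and 37562668 reads on listed genes. The counting precision of a member follows from its reads, and without molecular identifiers it covers counting error only.

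Groups came from the labels. The study names a count test, and since the deposited values are log2, limma 3.58.1 (R 4.3.3) was fitted to them with 1 mean per group and a variance trend, on 4 libraries for the untreated cells and on 12 for the inhibitors. The p-values are two-sided and Benjamini-Hochberg adjusted over all genes. There were 11 comparisons. The fit was tested on simulated data. Alternatives were quantile normalization, median centring, voom on the recovered reads with their totals, an offset of 1 CPM, a filter at a mean of 1 CPM, no variance trend, only the groups compared, a block for the replicate number, and each library left out in turn. Voom with the authors' scaling was chosen after seeing the data.

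The members and gene lists were chosen with earlier results of these data known. All 8 members are named in each comparison, and of each list at most the 3 genes with the largest difference among those that passed without overlap of libraries are named by rule. *MAPK14* between the cultures, *NAB1* under DMSO, *NAB2* under MK25 and, in the gap between replicates, *TRIB1* and *DUSP1* were chosen after their values were seen. Promoters came from RefSeq (GRCh38.p14). Python 3.11.15 drew the figures. The values of 1 cell type marker are not reported here.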

Additional observations from a re-analysis of the deposited data

Results flagged for a closer look

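The effect of an inhibitor differed between ischemic and regular cells, by the interaction term in limma, in 9 cases among the 8 genes, 3 for VX745 and 6 for MK25. Of all genes, 5.78% had a positive and 6.0% a negative interaction for VX745, and 10.5% and 13.9% for MK25. For VX745 the interaction was −0.66 in *EGR2*, −1.15 in *NR4A1* and −1.38 in *NR4A2* on the log2 scale. For MK25 it was −1.98 in *EGR1*, −0.72 in *EGR2*, −0.54 in *EGR3*, −0.83 in *NR4A1*, −0.85 in *NR4A2* and −0.64 in *IER2*. All of these are below zero, and the interactions of both inhibitors share the same DMSO libraries. In regular cells MK25 left *NR4A1* at 0.0014 and *NR4A2* at 0.14 against DMSO, and neither passed. The call of *EGR2* for VX745 held in 8 of 17 alternatives, with adjusted p from 0.0276 to 0.157 in limma.

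The response to ischemia had opposite signs in the 2 experiments for *EGR2*, at −0.59 in untreated and 0.65 in DMSO cells, and for *IER5*, at −0.44 and 0.14. In each case both ischemic libraries lay on one side of both regular libraries. The difference between the experiments was not tested, since their tables were normalized separately, and experiment and vehicle cannot be told apart. The value of *IER5* under DMSO did not pass.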

How the results depend on the processing

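Of 88 differences of members, 51 passed and 39 of these passed with the same sign in every alternative. Of 1200 alternative values, 46 lost and 9 gained a call with the sign kept, and the cause was not tested. Another 32 changed sign and were counted apart, whether or not their call changed. Without the variance trend the untreated count was 2 in place of 6. VX745 in regular cells had 0 members in place of 1 without the trend and with only the groups compared, and MK25 in regular cells 0 with these and with voom under either scaling. Counts with 1 library left out were 3 to 7 (untreated), 6 to 7 (DMSO), 6 to 6 (VX745) and 4 to 5 (MK25) between the cultures, 5 to 6 (VX745) and 6 to 7 (MK25) in ischemic cells, 0 to 1 and 0 to 2 in regular cells, 4 to 4 for MK25 against VX745, and 2 to 3 and 5 to 6 for the interactions.

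Signs that changed belonged to small values and to *EGR1* and *IER2* in untreated cells. Voom on the recovered reads gave −0.043 for *EGR1* in untreated cells, −0.078 for *IER5* between cultures under DMSO, 0.048 for *IER2* under VX745 and 0.030 for *NR4A3* under MK25 in ischemic cells, and 0.049 for *NR4A3* in the MK25 interaction. In the VX745 interaction *NR4A3* was at −0.13 with quantile normalization, −0.018 with median centring, −0.019 with an offset of 1 CPM and −0.030 with voom under the authors' scaling. *NR4A1* under MK25 in regular cells was at −0.0040 with median centring. With 1 library left out, values ran from −1.24 to 1.35 for *EGR1* and −0.64 to 0.38 for *IER2* in untreated cells. Between cultures under VX745 they ran from −0.11 to 0.087 for *EGR2* and −0.11 to 0.028 for *IER5*, and under MK25 from −0.19 to 0.066 for *EGR2* and −0.19 to 0.010 for *IER5*. In ischemic cells they ran from −0.25 to 0.12 for *IER2* under VX745 and −0.21 to 0.028 for *NR4A3* under MK25. In regular cells they ran from −0.20 to 0.041 for *EGR2* and −0.17 to 0.051 for *NR4A2* under VX745, and from −0.077 to 0.080 for *NR4A1* and −0.22 to 0.14 for *NR4A3* under MK25. For *NR4A3* the interactions ran from −0.17 to 0.18 (VX745) and −0.22 to 0.13 (MK25).

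The replicate number as a block changed none of the 88 member calls, and the untreated count stayed at 6, the DMSO count at 7 and the MK25 count in ischemic cells at 7. Same-numbered libraries deviated together with r = 0.19 in untreated cells and −0.10 to 0.18 between pairs of groups in the second experiment. With 1 deviation per group, these values cannot show whether same-numbered libraries shared a culture or a preparation. With 2 libraries a group, a missed call does not show that a gene did not change, and a fit with a lone library assumes that it varies like the others. Depth limits *NR4A3* most, with 33 reads in 1 library.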
